A study of Mus musculus with 12 samples.

Results

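The nuclear genes for the respiratory chain and ATP synthase form a set of 81 genes of the 24421 in the table. They were chosen by symbol: 84 rows carried a name beginning Ndufa, Ndufb, Ndufc, Ndufs or Ndufv with a number, Sdha to Sdhd, Uqcr, Cox4 to Cox8 or Atp5, and 3 of them (Cox8b, Cox8c, Cox7b2) were left out for a summed count under 10 over the 12 libraries. Complex I has 37 of these genes, complex II 4, complex III 8, complex IV 15 and complex V, the ATP synthase, 17. A few names in the set do not belong to subunits. Ndufa4 is now assigned to complex IV but stays under complex I by its name, Ndufa4l2 and Cox7a2l are not regular subunits, and Atp5s and Atp5sl are carried in RefSeq as Dmac2l and Dmac2. The 13 mitochondrially encoded subunits were not analysed here.

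The inner mitochondrial membrane holds 4 electron transfer complexes and the ATP synthase. Complexes I and II pass electrons from NADH and succinate to coenzyme Q, complex III hands them to cytochrome c, complex IV gives them to oxygen, and the proton gradient that I, III and IV build drives complex V. Hepatocytes are rich in mitochondria, and most subunits are made from nuclear genes, while a core set comes from the mitochondrial genome.

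RNA was measured in liver outside tumours from male mice 4 months of age, by stranded mRNA sequencing of 12 libraries. The design crossed 2 strains, LiK and LiKM, with 2 diets, a normal diet or one with 0.06% ACR given from 5 weeks of age, with 3 libraries in each of the 4 groups. The labels name no allele for either strain and do not expand ACR, and they do not say what LiK and LiKM share. Nothing in them says that the 3 libraries of a group came from separate litters or cages, so p-values measure the spread between these libraries. Levels are CPM, counts scaled to a common library total, adjusted by edgeR's TMM factors, fold changes are on the log2 scale from an edgeR quasi-likelihood fit to all 12 libraries, and a gene was called at an adjusted p under 0.05 over 13880 genes. The filter on low counts passed 79 of the 81 genes, all but Cox4i2 and Cox6a2.

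Library totals ran from 10124813 to 18647156 counts, and TMM factors from 0.830 to 1.24. The 6 hepatocyte markers, Alb and Apoa1 among them, summed to 119000 to 167000 CPM in LiK on the normal diet, 147000 to 160000 in LiK on ACR, 90600 to 101000 in LiKM on the normal diet and 125000 to 160000 in LiKM on ACR. The 8 biliary and progenitor markers, such as Krt19 and Epcam, summed to 35.6 to 52.3 CPM, 37.3 to 187 CPM, 596 to 1050 CPM and 334 to 529 CPM in the same order, and all 8 rose in LiKM on both diets. Of the 6 hepatocyte markers 2 fell in LiKM on the normal diet and 0 on ACR. All 6 had a log2 fold change below 0 on both diets. Of 4 T and NK cell markers 4 rose in LiKM on the normal diet and 1 on ACR, of 4 stellate cell markers 2 and 0, and of 4 macrophage and 3 endothelial markers 0. Among all genes tested 13.2% rose and 8.61% fell on the normal diet, and 5.55% rose and 4.24% fell on ACR. Markers of skeletal muscle, which has its own subunit isoforms, summed to at most 0.249 CPM in any library. Clock genes also set libraries apart: Arntl, a core clock activator, was at 0.721 to 1.73 CPM in LiK on ACR and 5.77 to 6.53 CPM in LiK on the normal diet. In LiKM, Arntl was at 30.3 and 29.6 CPM in ACR libraries 2 and 3 and at 5.66 CPM in library 1, and Nr1d1, a clock repressor, was at 215 CPM in normal diet library 3 against 8.04 and 20.7 CPM in the other two.

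On the normal diet, the subunit genes were lower in LiKM than in LiK relative to the typical gene. In this comparison 39 of 79 fell, against 8.61% of all genes tested, and 1 rose, against 13.2%. The median log2 fold change of the 79 was -0.32, that of all 13880 genes 0.02, and 76 of the 79 were below 0. Falls were called in all 5 complexes: 15 of 37 in complex I (median -0.29), 4 of 4 in complex II (-0.57), 6 of 8 in complex III (-0.42), 4 of 13 tested in complex IV (-0.31) and 10 of 17 in complex V (-0.39). Every LiKM library was below every LiK library for 49 of the 79 genes, which holds for 19.4% of all genes. Most subunit genes are highly expressed, and among the 5518 genes with a mean of at least 20 CPM 18.4% fell, while 39 of the 74 subunit genes at that level did.

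The size of this difference depends on the scale. With each library divided by its total count alone, the median gene was 0.41 higher in LiKM and the median subunit gene 0.07 higher. In edgeR 0 of 79 then fell, with 7 at an unadjusted p under 0.05 in either direction, while of all genes 115 fell and 4716 rose. The gap between the subunit genes and the median gene was -0.338 with TMM and -0.336 with totals alone, and 76 of 79 lay below the median gene on both scales. The falls called with TMM are therefore relative to the other genes, and no subunit gene's share of all counts passed as lower. Summed over the set, LiK had 9401, 9622 and 8547 CPM of the library total on the normal diet, and LiKM 8467, 8698 and 9704, so the groups overlapped. Complex II was the exception among the 5 complexes, with sums of 962, 966 and 887 CPM of the library total in LiK and 816, 830 and 785 in LiKM, which did not overlap. On the TMM scale the same sums were 11320, 10150 and 9994 CPM in LiK and 7486, 8068 and 7808 CPM in LiKM, which did not overlap. Whether the hepatocyte and biliary marker levels given above have a part in this was not tested, and in bulk tissue fewer cells of a type and less RNA per cell cannot be told apart.

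**Figure D1:**
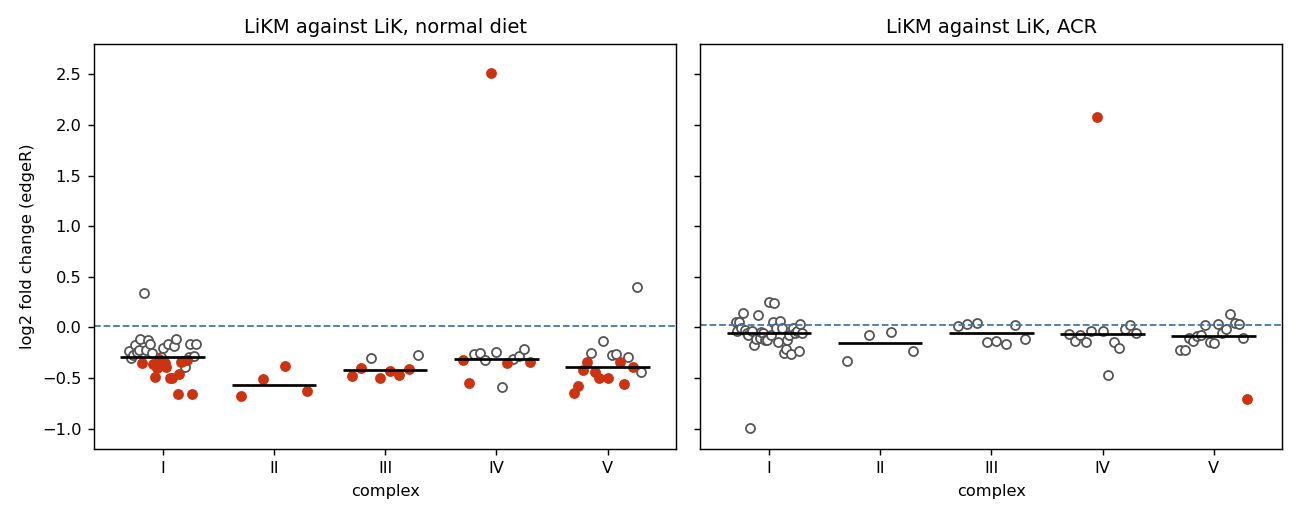
Log2 fold change of each subunit gene (y axis) by complex (x axis) in LiKM relative to LiK, without ACR (left) and with it (right), from the fit on the TMM scale. Filled points passed an adjusted p of 0.05, open points did not, the black bar is the median of the complex and the dashed line the median of all genes tested, and on the left 76 of 79 points lie below 0.

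**Figure D2:**
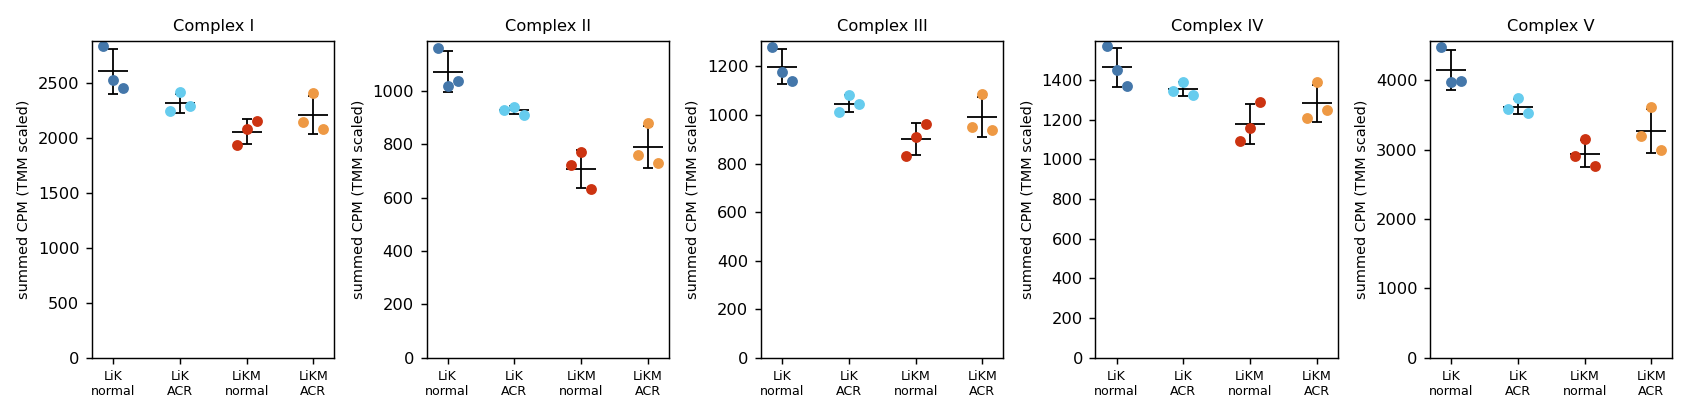
Summed CPM on the TMM scale (y axis) of the genes of each complex in every library, by strain and diet (x axis), with the mean and SD of 3 libraries in black. For complex II the LiK normal diet libraries lie at 1019 to 1159 CPM and the LiKM normal diet libraries at 632 to 770 CPM.

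Complex I takes electrons from NADH at its flavin subunit, Ndufv1, and passes them through iron-sulfur clusters in Ndufs1 and other core subunits. CPM values for complexes I to V are given next for the 3 libraries of each strain on the normal diet. Ndufv1 (chr19:4007384-4012806, mm10) was at 153, 136 and 136 CPM in LiK and 86.4, 104 and 78.8 CPM in LiKM, a log2 difference of -0.65 (adjusted p = 0.00375 in edgeR, SE 0.119). Ndufs1, the largest core subunit, was at 144, 129.8 and 126 CPM in LiK and 87.9, 91.8 and 72.7 CPM in LiKM, a log2 difference of -0.66 (adjusted p = 0.00473 in edgeR, SE 0.127). Neither gene's groups overlapped, but 8 of 12 libraries gave Ndufs1 a fractional count, and how such reads were assigned is unknown, so its level is uncertain. Ndufs7, which carries the last iron-sulfur cluster before the quinone, was at 56.4, 54.3 and 44 CPM in LiK and 41.1, 42.2 and 43.4 CPM in LiKM, without overlap, yet its log2 difference of -0.29 (adjusted p = 0.158 in edgeR, SE 0.139) did not pass. Of the accessory subunits, Ndufb8 in the membrane arm was at 92.6, 79.3 and 77 CPM in LiK and 59.5, 60.1 and 56.5 CPM in LiKM and fell, with a log2 difference of -0.50 (adjusted p = 0.00571 in edgeR, SE 0.0993). Ndufa9, next to the quinone site, was at 99.5, 92.5 and 92.2 CPM in LiK and 72.1, 76.1 and 72.5 CPM in LiKM and fell, with a log2 difference of -0.36 (adjusted p = 0.0103 in edgeR, SE 0.0826). The other genes that fell in this complex, among them Ndufb9, Ndufb10 and Ndufs3, had log2 fold changes from -0.50 to -0.31.

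Complex II, succinate dehydrogenase, also works in the citric acid cycle and is the one complex with no mitochondrially encoded subunit. All 4 of its genes fell. Sdha, the flavoprotein that oxidises succinate (chr13:74322254-74350280), was at 573, 524 and 516 CPM in LiK and 364, 370.0 and 277 CPM in LiKM, a log2 difference of -0.67 (adjusted p = 0.00558 in edgeR, SE 0.134). The iron-sulfur subunit Sdhb was at 202, 159 and 164 CPM in LiK and 116, 129 and 124 CPM in LiKM and fell, with a log2 difference of -0.51 (adjusted p = 0.0109 in edgeR, SE 0.117). The membrane anchors were Sdhc, at 129.6, 119.8 and 121 CPM in LiK and 90.1, 96.6 and 98.2 CPM in LiKM with a log2 difference of -0.38 (adjusted p = 0.0109 in edgeR, SE 0.087), and Sdhd, at 254, 215 and 238 CPM in LiK and 151, 174 and 133 CPM in LiKM with a log2 difference of -0.62 (adjusted p = 0.00515 in edgeR, SE 0.121). No LiKM library reached the lowest LiK library for any of the 4.

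Complex III moves electrons from coenzyme Q to cytochrome c. Its core proteins Uqcrc1 and Uqcrc2 both fell: Uqcrc1 was at 245, 212 and 210.5 CPM in LiK and 153, 169 and 148 CPM in LiKM and fell, with a log2 difference of -0.50 (adjusted p = 0.00919 in edgeR, SE 0.111). Uqcrc2 was at 244, 213 and 208 CPM in LiK and 162, 168 and 163 CPM in LiKM and fell, with a log2 difference of -0.43 (adjusted p = 0.0103 in edgeR, SE 0.0981), with fractional counts in 7 libraries and so the same uncertainty. The Rieske iron-sulfur protein Uqcrfs1 was at 161, 143 and 145 CPM in LiK and 98.4, 109.7 and 115 CPM in LiKM and fell, with a log2 difference of -0.48 (adjusted p = 0.00581 in edgeR, SE 0.0947). Uqcr10, a small subunit (chr11:4701973-4704342), was at 94, 84.5 and 90.4 CPM in LiK and 64.7, 62 and 66.7 CPM in LiKM, a log2 difference of -0.48 (adjusted p = 0.00268 in edgeR, SE 0.0817). All LiKM values of these 4 genes lay below all LiK values. Uqcrh and Uqcr11 also fell, by 0.41 and 0.40 on the log2 scale.

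Complex IV, cytochrome c oxidase, had falls in 4 of its 13 tested genes. Cox5a, a matrix-side subunit (chr9:57521274-57532426), was at 120.2, 124 and 112 CPM in LiK and 80.6, 84.7 and 78.2 CPM in LiKM, without overlap, and fell, with a log2 difference of -0.55 (adjusted p = 0.00246 in edgeR, SE 0.0928). Cox7a2, the isoform of subunit 7a found in liver, was at 119, 111 and 100.4 CPM in LiK and 85.4, 91.1 and 81.6 CPM in LiKM and fell, with a log2 difference of -0.36 (adjusted p = 0.0175 in edgeR, SE 0.0908). Cox4i1, the common isoform of subunit 4, was at 285, 261 and 243 CPM in LiK and 198, 209.6 and 225 CPM in LiKM, and its log2 difference of -0.32 (adjusted p = 0.0473 in edgeR, SE 0.104) lay close to the threshold. Its call was lost with 1 of 8 libraries left out: any of the 6 LiK libraries or LiKM normal diet library 1 or 2 (adjusted p up to 0.162 in edgeR). That of Cox7a2 was lost without LiK normal diet library 1 (adjusted p = 0.0738). Cox6a1, the isoform outside heart and muscle, was at 165, 158 and 143 CPM in LiK and 127, 127 and 138 CPM in LiKM, and its log2 difference of -0.25 (adjusted p = 0.111 in edgeR, SE 0.105) did not pass. The fourth fall was Cox8a, by 0.34.

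Isoforms known from other tissues were at the floor of the table or near it. Cox4i2, Cox6a2 and Cox8b, of lung, heart and muscle, were too low for the test. Cox7a1, of heart and muscle, was at 0.986, 0.849 and 1.09 CPM in LiK and 0.36, 0.423 and 1.19 CPM in LiKM, which overlapped, with a log2 difference of -0.59 (adjusted p = 0.419 in edgeR, SE 0.494). The exception was Cox6b2, an isoform of subunit 6b known from testis (chr7:4751792-4753094), the only subunit gene that rose. It had raw counts of 2, 3 and 1 in LiK and 17, 14 and 5 in LiKM on the normal diet, and of 8, 3 and 4 in LiK and 16, 29 and 25 in LiKM on ACR. In CPM these were 0.141, 0.17 and 0.0838 in LiK against 1.02, 0.986 and 0.398 in LiKM on the normal diet, and 0.577, 0.2 and 0.274 in LiK against 0.995, 1.97 and 1.52 in LiKM on ACR. The groups did not overlap on either diet, with log2 fold changes of 2.51 (adjusted p = 0.0126 in edgeR, SE 0.594) on the normal diet and 2.08 (adjusted p = 0.0232 in edgeR, SE 0.484) on ACR. On so few counts, the call on ACR was lost without LiK ACR library 2 (adjusted p = 0.102 in edgeR), LiK ACR library 3 (adjusted p = 0.0732) or LiKM ACR library 2 (adjusted p = 0.0685).

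Complex V makes ATP on a catalytic head of alpha and beta subunits turned by a ring of c subunits. Atp5a1 (alpha) was at 1153, 983 and 1023 CPM in LiK and 693, 756 and 570.4 CPM in LiKM, a log2 difference of -0.65 (adjusted p = 0.00819 in edgeR, SE 0.139). Atp5b (beta) was at 1159, 1062 and 1029 CPM in LiK and 777, 814 and 578 CPM in LiKM, a log2 difference of -0.58 (adjusted p = 0.0188 in edgeR, SE 0.151). The central stalk subunit Atp5c1 was at 246, 206 and 214 CPM in LiK and 157, 187 and 156 CPM in LiKM and fell, with a log2 difference of -0.42 (adjusted p = 0.0311 in edgeR, SE 0.122). No LiKM value of these 3 genes reached the lowest LiK value. Without LiK normal diet library 1 the calls of Atp5b (adjusted p = 0.0684 in edgeR) and Atp5c1 (adjusted p = 0.118) were lost, and that of Atp5c1 also without LiK library 3 (0.063) or LiKM library 1 (0.0916) or 3 (0.0736) of that diet. Atp5k, subunit e of the membrane part, which joins ATP synthases into dimers (chr5:108433244-108434448), was at 67.1, 56.2 and 60.1 CPM in LiK and 39, 43 and 42.5 CPM in LiKM, a log2 difference of -0.56 (adjusted p = 0.00232 in edgeR, SE 0.0939).

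The c subunit is made from 3 genes that differ in their targeting peptide and give the same mature protein. Atp5g3 was at 360.5, 318 and 314 CPM in LiK and 225, 253 and 226 CPM in LiKM and fell, with a log2 difference of -0.50 (adjusted p = 0.00832 in edgeR, SE 0.107). Atp5g1 was at 159, 133 and 147 CPM in LiK and 99.6, 105 and 107 CPM in LiKM and fell, with a log2 difference of -0.50 (adjusted p = 0.00937 in edgeR, SE 0.11). Atp5g2 was at 99.1, 90 and 90.3 CPM in LiK and 82.4, 85.5 and 86.4 CPM in LiKM, and its log2 difference of -0.14 (adjusted p = 0.307 in edgeR, SE 0.0905) did not pass. Its share of the counts of the 3 genes was 16.0%, 16.6% and 16.4% in LiK and 20.3%, 19.3% and 20.6% in LiKM on the normal diet, a ratio within a library that no scaling alters. On ACR the shares were 19.1%, 17.5% and 18.3% in LiK and 18.4%, 17.5% and 17.3% in LiKM, which overlapped. Atp5g2 had fractional counts in 10 of 12 libraries, so its level is uncertain.

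**Figure D3:**
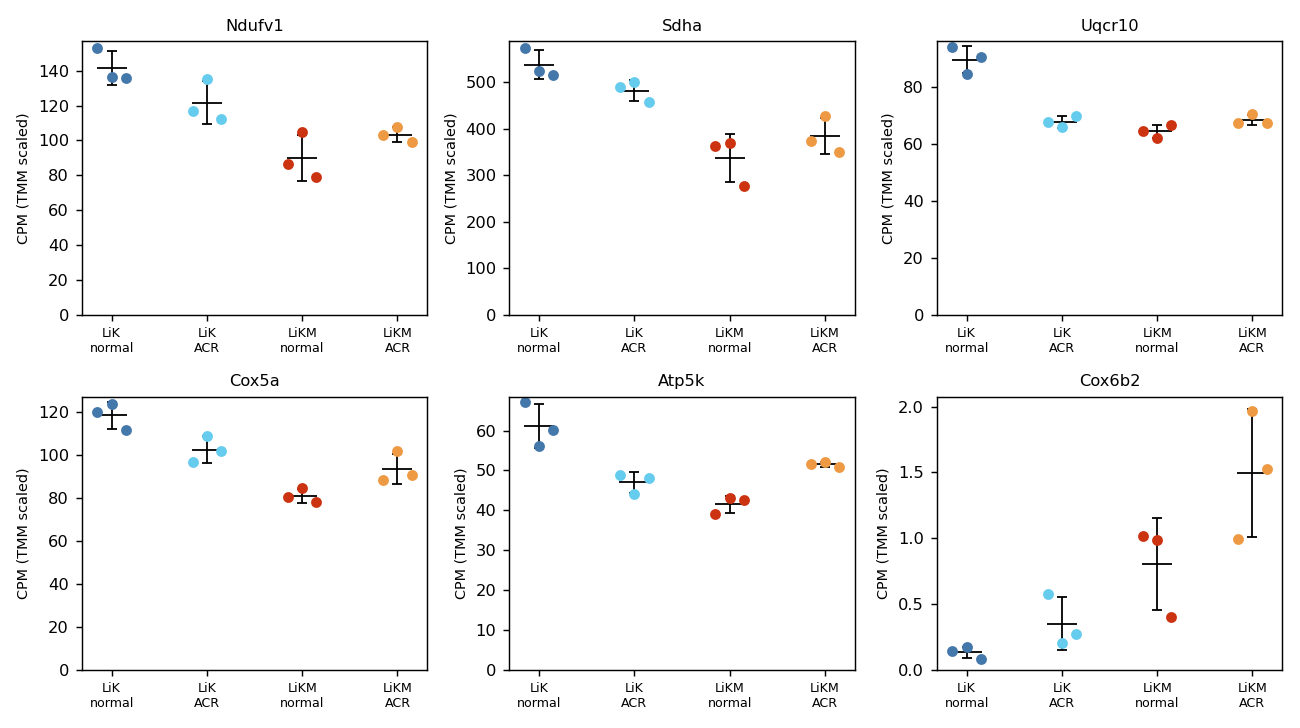
CPM on the TMM scale (y axis) of 1 subunit gene from complexes I, II, III and V and of Cox5a and Cox6b2 from complex IV in each library, by strain and diet (x axis), with the mean and SD of 3 libraries in black. Cox6b2 runs the other way from the rest, from 0.0838 to 0.170 CPM in LiK on the normal diet to 0.995 to 1.97 CPM in LiKM on ACR.

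Per kilobase of transcript, the highest levels in LiK on the normal diet were Atp5b at 565 ± 35.2 CPM per kb, Atp5g3 at 460 ± 35.9, Ndufa4 at 416, Atp5a1 at 409 and Cox4i1 at 348 (mean, SD where given, n = 3). The lowest of the 79 genes tested were Cox6b2 at 0.302, Ndufa4l2 at 1.16, Atp5s at 2.15 and Cox7a1 at 2.22 CPM per kb. Across the 4 groups, LiK on the normal diet had the highest mean CPM for 71 of 79 genes and LiKM on the normal diet the lowest for 63.

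Ratios within a library, which no scaling alters, differed between the strains for complexes II and V over complex I on both diets. The summed CPM of complex II over that of complex I was 0.409, 0.403 and 0.423 in LiK and 0.373, 0.370 and 0.293 in LiKM on the normal diet. On ACR it was 0.415, 0.390 and 0.398 in LiK and 0.353, 0.365 and 0.352 in LiKM. Every LiKM library lay below every LiK library on both diets. Within complex II, Sdha over Sdhc was 4.42, 4.38 and 4.26 in LiK and 4.04, 3.83 and 2.82 in LiKM on the normal diet, and 4.58, 4.67 and 4.36 against 3.73, 3.83 and 3.59 on ACR, again without overlap. Complex V over complex I was 1.58, 1.57 and 1.63 in LiK and 1.5, 1.52 and 1.28 in LiKM on the normal diet, and 1.60, 1.55 and 1.54 against 1.49, 1.51 and 1.44 on ACR, also without overlap. Complex III over complex I was lower in every LiKM library on the normal diet, at 0.452 to 0.466 in LiK and 0.430 to 0.447 in LiKM, and overlapped on ACR. The ratio of complex IV to complex I overlapped between the strains on both diets, at 0.554 to 0.600 in LiK and 0.557 to 0.602 in LiKM.

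Transcript length moved with the strain difference. Subunit genes with a mean of at least 5 CPM and a known transcript length were taken. On the normal diet the median log2 fold change was -0.28 for 33 subunit genes of up to 700 bases, -0.31 for 21 of over 700 to 1200 bases and -0.47 for 20 longer ones, of which 17 fell. Other genes with a mean of at least 20 CPM had medians of -0.02, -0.11 and -0.19 in the same classes, so the subunit genes were lower in each. Over these 74 subunit genes Pearson's r between the log2 fold change and log2 length was -0.51, a description over genes measured in the same libraries. The summed CPM of subunit genes with transcripts over 1200 bases over that of those up to 700 bases was 1.71, 1.65 and 1.72 in LiK and 1.58, 1.58 and 1.16 in LiKM on the normal diet, and 1.67, 1.65 and 1.62 against 1.53, 1.53 and 1.42 on ACR. LiKM normal diet library 3 had the lowest of these ratios, and without it 48 of 79 subunit genes fell. The part of transcript length in the complex II and V ratios was not tested.

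**Figure D4:**
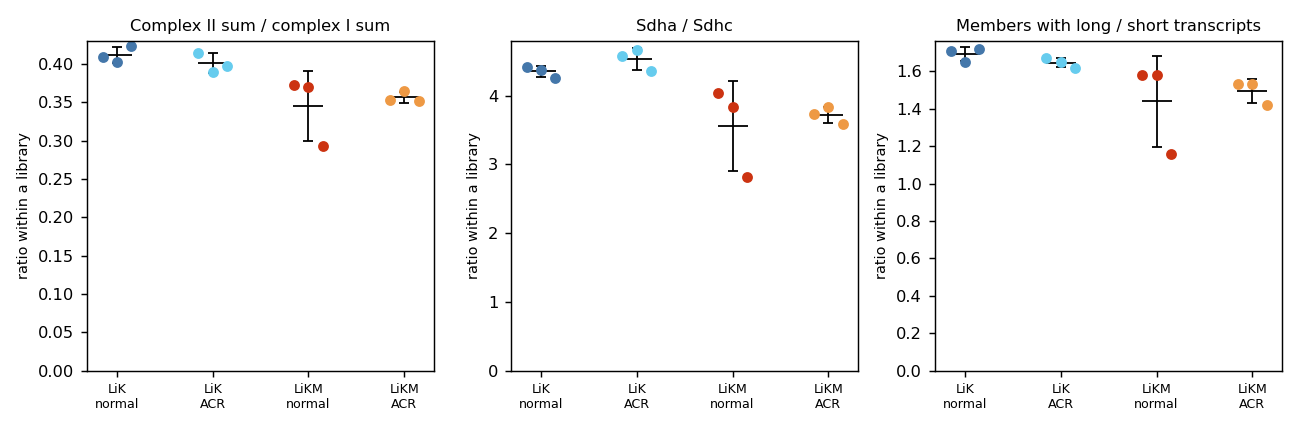
Ratios within each library (y axis) of the summed CPM of complex II to complex I, of Sdha to Sdhc, and of subunit genes with transcripts over 1200 bases to those up to 700 bases, by strain and diet (x axis), with the mean and SD of 3 libraries in black. In all 3 panels every LiKM library lies below every LiK library, and LiKM normal diet library 3 is the lowest.

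On ACR, few subunit genes differed between the strains. In LiKM against LiK 1 of 79 fell (4.24% of all genes) and 1 rose (5.55%), with a median of -0.06 against 0.02 for all genes, and 59 were below 0. This median was -0.13 without LiKM ACR library 2, -0.03 without LiKM ACR library 1, -0.04 without LiK ACR library 2, -0.15 with the replicate block in LiKM and -0.03 with the identifier covariate, and it turned to 0.02 with upper-quartile factors and 0.05 with library totals alone. At an unadjusted p under 0.05 there were 3 lower and 1 higher. Every LiKM library lay below every LiK library for 12 of 79 genes, against 16.0% of all genes. Cox6b2 rose, as given above, and Atp5sl fell. Atp5sl, a complex I assembly gene rather than a subunit of ATP synthase, was at 34, 34.4 and 34.6 CPM in LiK and 21, 23.1 and 18.9 CPM in LiKM, without overlap, a log2 difference of -0.71 (adjusted p = 0.0239 in edgeR, SE 0.168). Its call was lost without LiK ACR library 1 (adjusted p = 0.0635 in edgeR), 2 (0.0813) or 3 (0.0555), and without LiKM ACR library 1 (0.0506) or 3 (0.0618). On the normal diet it was at 31.7, 35.4 and 29.3 CPM in LiK and 16.7, 26.1 and 28.6 CPM in LiKM, and its log2 difference of -0.44 (adjusted p = 0.0825 in edgeR, SE 0.168) did not pass.

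In the complexes without a call on ACR, the genes of smallest p were as follows. Sdha was at 489, 501 and 457 CPM in LiK and 374, 427 and 350.5 CPM in LiKM, without overlap, with a log2 difference of -0.33 (adjusted p = 0.134 in edgeR, SE 0.133). Ndufa4l2, a homologue of Ndufa4 induced by hypoxia in other cells, was at 2.31, 1.47 and 1.72 CPM in LiK and 1.06, 0.814 and 0.854 CPM in LiKM, without overlap, with a log2 difference of -0.999 (adjusted p = 0.119 in edgeR, SE 0.388). Uqcrfs1, in complex III, was at 126, 133 and 132 CPM in LiK and 113, 124 and 113 CPM in LiKM, without overlap, with a log2 difference of -0.16 (adjusted p = 0.291 in edgeR, SE 0.0945). Of genes described above, Atp5b was at 936, 1001 and 931 CPM in LiK against 811, 928 and 718 CPM in LiKM, without overlap, with a log2 difference of -0.22 (adjusted p = 0.37 in edgeR, SE 0.151). Cox5a was at 96.8, 109 and 102 CPM in LiK and 88.6, 102 and 90.6 CPM in LiKM, which overlapped, with a log2 difference of -0.13 (adjusted p = 0.384 in edgeR, SE 0.0925). Medians by complex were -0.05, -0.16, -0.05, -0.07 and -0.09 from I to V.

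ACR against the normal diet gave no call among the subunit genes in either strain. In LiK 0 of 79 passed in edgeR, where 0.195% of all genes did in either direction. At an unadjusted p under 0.05 were 13, all lower on ACR (14.1% of all genes in either direction, 6.66% lower). The median was -0.17 against 0.01 for all genes, and 71 were below 0. Uqcr10 had the smallest p, at 94, 84.5 and 90.4 CPM without ACR and 67.6, 65.9 and 70 CPM with it, and no overlap, a log2 difference of -0.40 (adjusted p = 0.0747 in edgeR, SE 0.0816). Atp5k followed, at 67.1, 56.2 and 60.1 CPM without and 49, 44.1 and 48.2 CPM with ACR, again apart, with a log2 difference of -0.38 (adjusted p = 0.122 in edgeR, SE 0.0936). DESeq2's Wald test called both, at an adjusted p of 0.000248 for Uqcr10 and 0.0199 for Atp5k. An edgeR fit with the replicate number as a block among the LiKM libraries also called both, at an adjusted p of 0.0165 and 0.0397. These 2 fits called more genes of every kind, 397 and 701 of all genes in either direction, against 27 in the main fit. Same-numbered LiKM libraries deviated together in these same data, but the labels do not say that the numbers pair samples. LiK normal diet library 1 was the highest of its group for 69 of 79 genes, and without it the median was -0.11 and 4 genes had an unadjusted p under 0.05. It was the only library of its group whose identifier began with KM, as those of all LiK ACR libraries did. With a covariate for these letters the median was -0.258, and 34 genes had an unadjusted p under 0.05. Beyond that fit, the part of the identifier letters in these values was not tested. The Arntl values given above also separated the LiK diet groups, and the part of the clock in these values was not tested.

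In LiKM the same comparison also called 0 of 79 genes, as of all genes (0.0%), and DESeq2 called 0 of the 79. At an unadjusted p under 0.05 there were 5, all higher on ACR (7.24% of all genes in either direction, 2.33% higher): Atp5k, Atp5g1, Uqcrh, Ndufb8 and Cox5a. The median was 0.13 against -0.01 for all genes, and 69 were above 0. Atp5k was at 39, 43 and 42.5 CPM without ACR and 51.8, 52.1 and 50.9 CPM with it, and no overlap, a log2 difference of 0.31 (adjusted p = 0.416 in edgeR, SE 0.0938). Cox5a was at 80.6, 84.7 and 78.2 CPM without and 88.6, 102 and 90.6 CPM with ACR, again apart, with a log2 difference of 0.21 (adjusted p = 0.68 in edgeR, SE 0.0926). LiKM ACR library 2 was the highest of its group for 70 of 79 genes, and without it the median was 0.06 and 1 gene had an unadjusted p under 0.05.

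The difference between the 2 diet effects, LiKM minus LiK, was tested directly and called 0 of 79 genes in edgeR (0.0072% of all genes in either direction). At an unadjusted p under 0.05 there were 29, of which 28 were higher and 1, Ndufa4l2, lower, against 11.5% of all genes in either direction (4.78% higher and 6.69% lower). This count fell to 10 without LiK normal diet library 1 or LiK ACR library 3, to 12 without LiK ACR library 1 or LiKM normal diet library 1, and to 11 without LiKM ACR library 2. It was 17 without the 3 LiKM libraries that stood apart in clock genes and 3 with library totals alone as the scale. The count was higher, at 43, with the identifier covariate, 38 with the replicate block in LiKM, 36 without LiKM normal diet library 3 and 32 with DESeq2. The median was 0.28 against -0.02 for all genes, and 73 were above 0. Atp5k had a difference of 0.69 (adjusted p = 0.114 in edgeR, SE 0.133) and Uqcr10 of 0.49 (adjusted p = 0.169 in edgeR, SE 0.115). DESeq2 called both (adjusted p = 0.00112 and 0.00423), and edgeR with the replicate block in LiKM called Atp5k (adjusted p = 0.0263). Of all genes these fits called 160 and 260 in either direction, against 1 in the main fit. The test of the difference is the same as that of the strain difference on ACR against that on the normal diet, so the smaller count of falls on ACR was not itself shown to differ gene by gene.

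**Figure D5:**
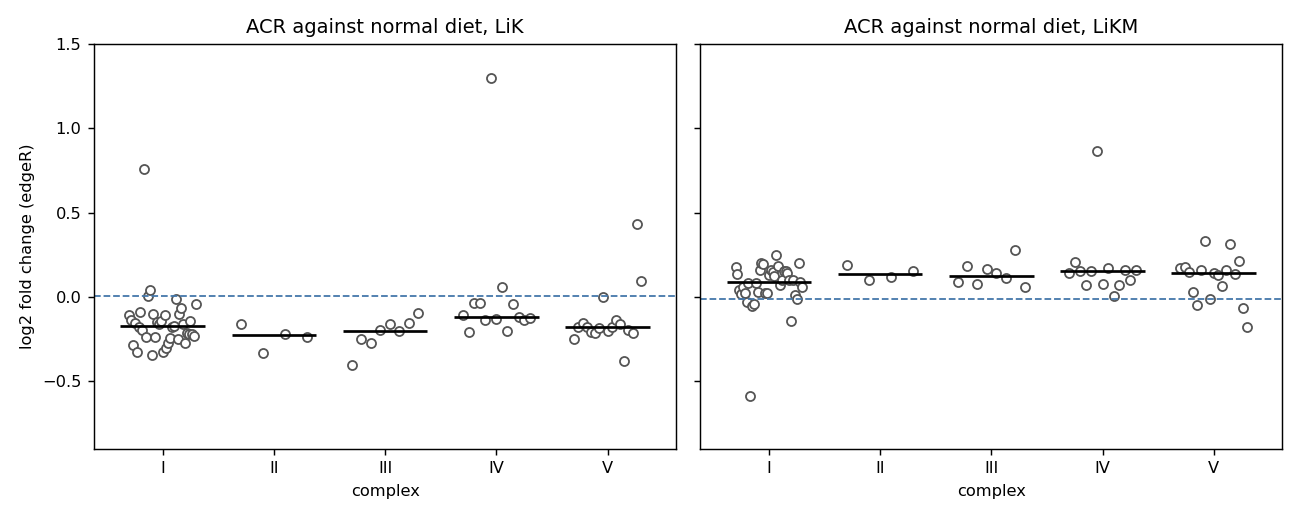
Log2 fold change of each subunit gene (y axis) by complex (x axis) for ACR against the normal diet in LiK (left) and LiKM (right), on the TMM scale. No point passed an adjusted p of 0.05, the black bars are medians of the complexes and the dashed line the median of all genes, with 71 points below 0 in LiK and 69 above 0 in LiKM.

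Genes around the complexes were read from lists chosen with earlier results of these data known. On the normal diet, 2 of 4 subunits outside the name pattern fell in LiKM, the cytochrome Cyc1 of complex III at -0.52 (adjusted p = 0.00864 in edgeR, SE 0.112) and Ndufab1 at -0.42 (adjusted p = 0.016 in edgeR, SE 0.106). Atpif1, the inhibitor of ATP synthase, rose by 0.59 (adjusted p = 0.0225 in edgeR, SE 0.161), and its call was lost without 3 LiKM libraries that stood apart in clock genes (adjusted p = 0.102 in edgeR). With the replicate block in LiKM neither Atpif1 (adjusted p = 0.0974) nor Ndufab1 (adjusted p = 0.0585) passed on the normal diet, and neither did in a fit of only the groups compared (adjusted p = 0.0583 and 0.0874 in edgeR). Among all genes 8.61% fell in this comparison and 13.2% rose, and among those with a mean of at least 20 CPM 18.4% fell. Of 48 assembly factors 7 fell and 0 rose, with Coa5 of complex IV at -0.59 (adjusted p = 0.00426 in edgeR, SE 0.111) and Taco1, a translational activator of a complex IV subunit, at -0.62 (adjusted p = 0.0157 in edgeR, SE 0.155). Of 17 genes for electron carriers and coenzyme Q synthesis 4 fell, led by Coq9 at -0.48 (adjusted p = 0.00682 in edgeR, SE 0.0998) and Etfdh, which feeds electrons from fat oxidation, at -0.53 (adjusted p = 0.0106 in edgeR, SE 0.121). Of 17 citric acid cycle genes 8 fell and 1, Idh2, rose. With library totals alone as the scale, 0 genes of these 4 lists fell on the normal diet, while 1, 3, 3 and 1 rose. On that scale 115 of all 13880 genes fell and 4716 rose.

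On ACR, 2 of 48 assembly factors fell in LiKM, against 4.24% of all genes, a share near that background. They were Timmdc1, at -0.32 (adjusted p = 0.0379 in edgeR, SE 0.0861) and Foxred1, at -0.42 (adjusted p = 0.033 in edgeR, SE 0.109), both of complex I. Of the carriers and coenzyme Q genes 3 fell, Coq10a at -0.86 (adjusted p = 0.0156 in edgeR, SE 0.18), Etfdh at -0.57 (adjusted p = 0.0161 in edgeR, SE 0.121) and Coq9 at -0.47 (adjusted p = 0.0163 in edgeR, SE 0.0997), and 0 of 17 citric acid cycle genes were called by edgeR. DESeq2 called 3 of them lower (Ogdh, Sucla2, Pdha1), and edgeR with the replicate block in LiKM called 4 lower (Ogdh, Sucla2, Dlat, Idh3g), names picked after their values were seen. Of all genes these fits called 962 and 1054 lower, against 588 in the main fit. The ACR and normal diet comparisons use different libraries. Neither diet comparison called a gene of these lists or of the regulators below in edgeR. In LiK, DESeq2 called Pdhb of pyruvate dehydrogenase lower on ACR (log2 -0.71, adjusted p = 0.0203) and the coactivator Ppargc1b higher (0.85, adjusted p = 0.00951). The replicate block in LiKM added calls, among them those of Idh3a, Ndufaf4, Coa6 and cytochrome c (Cycs), all lower on ACR. The genes named for these calls were also picked after their values were seen. For the diet effect in LiK, DESeq2 called 397 of all genes in either direction and the replicate block 701.

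Transcriptional regulators of mitochondrial genes were lower in LiKM in part, where 7 of 18 fell on the normal diet, against 8.61% of all genes, and 4 of 18 on ACR, against 4.24%. Gabpa, the DNA-binding part of GABP (NRF-2), was at 46.4, 54.3 and 50.2 CPM in LiK and 37.7, 39.3 and 32.8 CPM in LiKM on the normal diet, a log2 difference of -0.46 (adjusted p = 0.00948 in edgeR, SE 0.102), and at 49.5, 52.3 and 45.9 against 35.2, 37 and 37.7 CPM on ACR, a log2 difference of -0.43 (adjusted p = 0.0246 in edgeR, SE 0.102). Esrra, a nuclear receptor that drives mitochondrial genes with PGC-1 coactivators, fell on both diets, with log2 differences of -0.37 (adjusted p = 0.0293 in edgeR, SE 0.107) and -0.40 (adjusted p = 0.0377 in edgeR, SE 0.107). The coactivator Ppargc1b was at 4.44, 4.92 and 6.2 CPM in LiK and 3.3, 2.82 and 3.9 CPM in LiKM on the normal diet, and at 10.2, 8.06 and 9.54 against 3.11, 4.54 and 3.9 CPM on ACR, with log2 differences of -0.63 (adjusted p = 0.0494 in edgeR, SE 0.21) and -1.26 (adjusted p = 0.00606 in edgeR, SE 0.203). All LiKM values lay below all LiK values for Gabpa and Ppargc1b on both diets. Sirt3, a mitochondrial deacetylase, fell on both diets, with log2 differences of -0.64 (adjusted p = 0.0042 in edgeR, SE 0.12) and -0.64 (adjusted p = 0.0105 in edgeR, SE 0.12).

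Tfam, which packages and transcribes mitochondrial DNA, fell on the normal diet, at -0.49 (adjusted p = 0.00606 in edgeR, SE 0.0987), and did not pass on ACR, at -0.19 (adjusted p = 0.234 in edgeR, SE 0.0981). Ppargc1a did not pass on either diet, at -0.27 (adjusted p = 0.676 in edgeR, SE 0.402) and -0.34 (adjusted p = 0.626 in edgeR, SE 0.392), with its ACR value in LiKM between 9.02 and 33.6 CPM. Without the 3 LiKM libraries that stood apart in clock genes, which leaves 1 LiKM library on ACR that is assumed to vary like the others, Ppargc1a fell on ACR, at -1.39 (adjusted p = 0.0487 in edgeR). Nrf1 was above 0 on both, at 0.26 (adjusted p = 0.276 in edgeR, SE 0.16) and 0.38 (adjusted p = 0.15 in edgeR, SE 0.16). With totals alone as the scale, Gabpa, Esrra and Tfam did not pass on either diet, Esrra on the normal diet turned to 0.02 and Nrf1 rose there by 0.64 (adjusted p = 0.0171 in edgeR), while Sirt3 and Ppargc1b still fell on ACR (adjusted p = 0.0321 and 0.0164) but did not pass on the normal diet (adjusted p = 0.138 and 0.444 in edgeR). With upper-quartile factors the ACR calls of Gabpa and Esrra were lost (adjusted p = 0.0544 and 0.0756 in edgeR), as were the normal-diet calls of Ppargc1b and Esrra (adjusted p = 0.106 and 0.104 in edgeR). Without the same 3 LiKM libraries, the ACR calls of Gabpa, Esrra and Sirt3 were lost (adjusted p = 0.067, 0.19 and 0.11 in edgeR). In a fit of only the groups compared, Gabpa, Esrra and Ppargc1b did not pass on the normal diet (adjusted p = 0.0539, 0.0944 and 0.12 in edgeR) and Esrra did not pass on ACR (adjusted p = 0.0686 in edgeR). The replicate block in LiKM ended the call of Ppargc1b on the normal diet (adjusted p = 0.0563).

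Promoters are shown because some of these regulators, among them Nrf1, Gabpa and Esrra, act by binding DNA. RefSeq promoters (GRCm38.p6, 250 bases before to 50 after the start) matched 64 of the 81 genes and were searched on both strands for GCGCANGCG (NRF1), CCGGAAG (the ETS family, to which GABP belongs), AAGGTCA (ERR), AAGATGGCG (YY1) and GGGCGG (SP). NRF1 matched 20 of the 64 (31.2%, against 7.03% of all 27025 genes with a promoter), ETS 16 (25.0%, against 9.93%), ERR 8 (12.5%, against 5.38%), YY1 7 (10.9%, against 1.64%) and SP 25 (39.1%, against 38.2%). A gene counted when any of its promoters matched, and the background took in genes of any level in these livers. On the normal diet, the median log2 fold change in LiKM was -0.36 for the 20 genes with an NRF1 match, 10 of which fell or rose by the test, and -0.32 for the 44 without, 22 of which did. The last 150 bases before the start are printed for 4 genes that fell in complexes II and V, picked because they hold a match there, while Atp5b and Atp5g1, which also fell, have no NRF1, ETS or ERR match in their promoters. They are shown with NRF1, ETS and ERR matches in capitals, 5′ to 3′ in the direction of the gene.
Sdha promoter, chr13:74350241-74350390, minus strand: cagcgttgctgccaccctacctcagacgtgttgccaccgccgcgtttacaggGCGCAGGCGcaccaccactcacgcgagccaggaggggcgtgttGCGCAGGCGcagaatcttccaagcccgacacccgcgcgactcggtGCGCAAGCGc
Sdhd promoter, chr9:50603850-50603999, minus strand: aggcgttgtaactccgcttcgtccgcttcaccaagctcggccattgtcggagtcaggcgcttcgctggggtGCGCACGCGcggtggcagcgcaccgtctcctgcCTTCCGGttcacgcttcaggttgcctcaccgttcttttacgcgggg
Atp5k promoter, chr5:108434400-108434549, minus strand: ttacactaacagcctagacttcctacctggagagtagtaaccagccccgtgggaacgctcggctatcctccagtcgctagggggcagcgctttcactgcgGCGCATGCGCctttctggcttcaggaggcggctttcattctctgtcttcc
Atp5g3 promoter, chr2:73911327-73911476, minus strand: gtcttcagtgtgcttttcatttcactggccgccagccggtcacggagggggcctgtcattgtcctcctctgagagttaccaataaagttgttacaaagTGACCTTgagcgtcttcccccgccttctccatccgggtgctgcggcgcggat
Sdha holds 3 separate NRF1 matches and Sdhd an NRF1 and an ETS match, the latter read on the other strand. In Atp5k a palindromic stretch matches NRF1 on both strands, and Atp5g3 holds an ERR match on the other strand. A match describes letters in this window and says nothing on binding in these livers.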

How the data were processed

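The table of the whole series held gene counts made by the authors with featureCounts 2.0.0 on mm10, per the submitters' processing notes. The annotation, strand setting and treatment of shared reads were not given in the sources used here. The deposited values are expected counts rather than whole counts, since 18.9% of values above 0 were not whole, and 25 of the 81 subunit genes had such a value. The values were rounded and fitted with edgeR 4.0.16 in R 4.3.3 (filterByExpr, TMM, robust quasi-likelihood test, 1 coefficient for each of 4 groups), with Benjamini-Hochberg adjustment over 13880 genes for each of 5 contrasts. The fit was tested on simulated counts. Alternatives were DESeq2 1.42.0, other scalings, no filter, left-out libraries, a replicate block and a covariate for the opening letters of the identifiers. These letters were MP for LiK normal diet libraries 2 and 3 and LiKM ACR library 3, and KM for the others.

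Same-numbered LiKM libraries of the 2 diets deviated together (r = 0.366, 0.217 and 0.485), which the LiK libraries did not (0.023, -0.052 and -0.072). Coordinates are from GENCODE M21 (mm10), where 79 genes matched, and transcript lengths are medians over its coding transcripts. Each group has 3 libraries, and depth ran from 10124813 to 18647156 counts. The genes, lists and libraries set apart were chosen with earlier results of these data known. Full values are given for subunits picked by role, for up to 3 called genes of smallest p in each complex and comparison, and for the gene of smallest p where none was called, apart from values not reported here.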

Additional observations from a re-analysis of the deposited data

How the results depend on the processing

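With library totals alone as the scale, 0 subunit genes fell in LiKM on the normal diet in place of 39, and the median change was 0.0687. Cox4i1, Cox7a2, Ndufa9 and Sdhc then turned to 0.0764, 0.0304, 0.026 and 0.0142, and the log2 ratios of summed CPM became 0.0533, -0.212, -0.0171, 0.0851 and -0.106 for complexes I to V. On ACR the same scale gave 0 falls, a median of 0.0526 and ratios of 0.0482, -0.12, 0.0352, 0.0392 and -0.0347. It moved the median diet effect to -0.0465 in LiK and -0.0317 in LiKM, and their difference to 0.00417. These shifts follow from the scale itself, since the median of all genes moved with them by 0.390 on the normal diet. Of all calls in that comparison 60.6% were higher with TMM, 97.6% with totals and 77.6% with upper-quartile factors.

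Upper-quartile factors gave 24 falls on the normal diet and a median of -0.215, and a fit of only the 2 groups compared gave 16 falls and 0 rises. That fit tested 78 subunit genes, and Cox6b2, the gene that rose in the main fit, was not among them. The median was -0.426 with the replicate block in LiKM, -0.424 with the identifier covariate and -0.42 without the 3 LiKM libraries that stood apart in clock genes. On the normal diet only library 1 of LiK had the KM letters that all LiKM libraries had. Leaving out 1 library at a time gave 21 (LiK normal diet library 1) to 48 (LiKM normal diet library 3) falls and medians of -0.417 to -0.276. On ACR it gave 0 to 1 falls and 0 to 1 rises, and without the 3 LiKM libraries both were 0. In LiK, falls on ACR were 2 with DESeq2, 1 in a fit of 2 groups, 2 with the replicate block in LiKM and 1 without the 3 libraries. Among all genes these fits called 168, 464, 404 and 365 lower, against 9 in the main fit. For the difference of diet effects, rises were 2 with DESeq2 and 1 with the replicate block in LiKM, where 49 and 136 of all genes rose. The median of that difference was 0.434 with the identifier covariate. The replicate block over all groups gave 37 falls on the normal diet, and the block in LiKM ended none of the calls between LiKM and LiK for subunit genes given in full. The causes of these changes, other than the scale, were not tested.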

Other observations

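LiKM normal diet library 3 had the highest CPM of its group for 49 of 79 subunit genes and the lowest for 20. The genes at the low end included the long, abundant ones: Sdha was at 277 CPM there against 364 and 370.0 CPM in libraries 1 and 2, and Atp5b at 578 CPM against 777 and 814 CPM. Cox4i1, with a shorter transcript, was at 225 CPM there against 198 and 210 CPM.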
